A study of Homo sapiens with 16 samples.

Results

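Transcript levels of 9 genes of the transforming growth factor beta (TGF-beta) pathway were followed in MDA-MB-231, a cell line from a human triple-negative breast tumour, after treatment with a kinase inhibitor, a microtubule drug or both. The genes are the ligand genes TGFB1, TGFB2 and INHBA, the receptor genes TGFBR1 and TGFBR2, the signal transducer SMAD3, and the feedback genes SMAD7, SKIL and PMEPA1. They were selected by gene symbol from the 37864 genes of the count table, with the results of the treatment comparisons known. Their changes with treatment are therefore given as a description, without a test of their own.

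The study held 16 RNA sequencing libraries, 4 for each of DMSO (the solvent control), afatinib, paclitaxel, and afatinib with paclitaxel, called the combination here. Afatinib blocks EGFR and its sister kinases by binding them covalently, and paclitaxel freezes the microtubules that a dividing cell needs. All libraries came from the same cultured line, grown with fetal bovine serum, which itself carries TGF-beta, and neither dose nor duration of treatment is given in the sources used here. Whether each replicate was its own culture is not stated, and the p-values reflect only how far these samples scatter, and that scatter may be technical.

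TGF-beta ligands are secreted in a latent form, and once released they bind the type II receptor TGFBR2, which activates the type I receptor TGFBR1. The active receptor phosphorylates SMAD2 and SMAD3, which join SMAD4 and enter the nucleus to switch on target genes. Several of those targets, SMAD7, SKIL and PMEPA1 among them, in turn restrain the pathway, and in breast cancer cells the pathway is known for its part in invasion and the mesenchymal state.

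The promoters of TGFB2, INHBA and PMEPA1, the members with the largest changes under the combination, are printed with matches to short motifs. Each sequence runs 5′ to 3′ on the gene's own strand, from 250 bases before to 50 bases after the RefSeq start site (GRCh38.p14). Capitals mark matches on either strand to CAGAC, the SMAD binding element, or to GGAATG, the TEAD motif.
TGFB2: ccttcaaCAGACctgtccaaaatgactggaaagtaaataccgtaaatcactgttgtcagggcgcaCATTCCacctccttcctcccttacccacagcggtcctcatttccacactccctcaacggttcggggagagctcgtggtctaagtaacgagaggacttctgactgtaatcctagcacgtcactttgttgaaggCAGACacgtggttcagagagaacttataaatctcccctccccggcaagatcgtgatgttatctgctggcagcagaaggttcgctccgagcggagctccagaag
INHBA: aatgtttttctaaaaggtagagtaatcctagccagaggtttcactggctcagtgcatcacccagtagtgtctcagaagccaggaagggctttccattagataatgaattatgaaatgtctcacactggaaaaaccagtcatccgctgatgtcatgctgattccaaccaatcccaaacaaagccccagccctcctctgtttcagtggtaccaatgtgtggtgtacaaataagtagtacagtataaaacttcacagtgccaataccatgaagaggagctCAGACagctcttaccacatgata
PMEPA1: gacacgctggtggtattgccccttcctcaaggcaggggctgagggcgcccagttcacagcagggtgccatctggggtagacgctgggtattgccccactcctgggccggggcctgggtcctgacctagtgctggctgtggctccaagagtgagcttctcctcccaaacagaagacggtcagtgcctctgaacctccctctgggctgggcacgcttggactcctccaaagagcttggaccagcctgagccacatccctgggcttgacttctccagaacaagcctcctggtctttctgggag

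The TGFB2 window (chr1:218345086-218345385, plus strand) held CAGAC at positions −243 and −53 from the start site and CATTCC, the reverse complement of the TEAD motif, at −185. The INHBA window (chr7:41703041-41703340, minus strand) held CAGAC at position 28. In the printed PMEPA1 window (chr20:57711423-57711722, minus strand), 1 of 4 that RefSeq gives for the gene, no motif was matched, and 3 of the 4 windows held CAGAC or GTCTG. All 9 genes had a window, and 6 of the 9 windows used held CAGAC or GTCTG, against 45.3% of 35116 promoter windows. The AP-1 motif TGANTCA was in 1 of 9 windows, that of TGFBR2, at position −6, against 7.71% of all windows, and the TEAD motif was in 1 of 9 against 14.0%. These are matches of letters, not measured binding. The RefSeq start lay 899 bases from the GENCODE start of TGFB2 and 2744 bases from that of INHBA.

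Totals per library lay between 28.4M and 48.1M counts, with 42.7M as their median, and the lowest count of any member in a library was 372, for SMAD7. All 9 members were among the 17991 genes with enough counts to be tested. In each group the labels give more concentrated RNA for replicates 1 and 2 (345.6 to 1290.9 ng/µl) than for replicates 3 and 4 (118 to 330 ng/µl), so this split entered every fit as a term. VIM (844 to 1210 CPM), CD44 and AXL, which mark mesenchymal breast lines, were high in all libraries, while of the epithelial and luminal markers ESR1 (at most 0.491 CPM) and CDH1 (at most 0.407 CPM) were near 0. The others on that list were present in every library, GATA3 at 8.22 to 14.3, EPCAM at 6.6 to 13.7, PGR at 3.8 to 6.44 and KRT8 at 492 to 734 CPM. SPARC, on the same mesenchymal list, was also low (at most 1.11 CPM). The summed level of the 6 epithelial markers was 673 to 760 CPM in DMSO, 648 to 709 CPM with paclitaxel, 518 to 572 CPM with afatinib and 519 to 581 CPM in the combination. That of 4 endothelial markers was 3.64 to 9.25, 3.78 to 7.22, 2.7 to 5.13 and 2.76 to 4.83 CPM in the same order. The 4 fibroblast markers in the table summed to 3.59 to 8.28, 2.63 to 5.29, 2.28 to 6.58 and 2.05 to 4.83 CPM in that order. Most of this was PDGFRB, at 1.89 to 8.12 CPM over all libraries. The part of these differences in the results was not tested. The blood markers in the table, PTPRC and CD3E, summed to at most 0.111 CPM.

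Levels are given as CPM, counts scaled to library size with edgeR's TMM factors, with the SD over 4 libraries. Changes are log2 fold changes ± SE from edgeR, with all 16 libraries in 1 fit. A gene is called where its adjusted p over all tested genes was under 0.05. On a scale per kilobase of the gene length the authors list, the DMSO levels ran from TGFBR2 (55.7 ± 4.39 CPM per kb) through TGFB2 (43.9 ± 13.7), TGFB1 (36.4 ± 3.8), INHBA (24.5 ± 7.17), SMAD3 (20.5 ± 2.38) and PMEPA1 (17.9 ± 1.86) to TGFBR1 (6.93 ± 1.41), SKIL (3.58 ± 0.289) and SMAD7 (3.16 ± 0.276). The ranges of neighbours in that order overlapped over the 4 DMSO libraries, except those of PMEPA1 above TGFBR1 and of TGFBR1 above SKIL. Ranges were taken over all 4 libraries, so an order that held within each library can still show as an overlap. The order of both TGF-beta ligand genes turned between the concentration sets. Over replicates 1 and 2, TGFB1 stood at 36.7 and TGFB2 at 32.6 CPM per kb, and over replicates 3 and 4 at 36.1 and 55.2 CPM per kb. TGFBR2 had the highest mean in both sets, 51.9 and 59.4 CPM per kb, and SMAD7 the lowest, 3.21 and 3.11 CPM per kb.

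**Figure D1:**
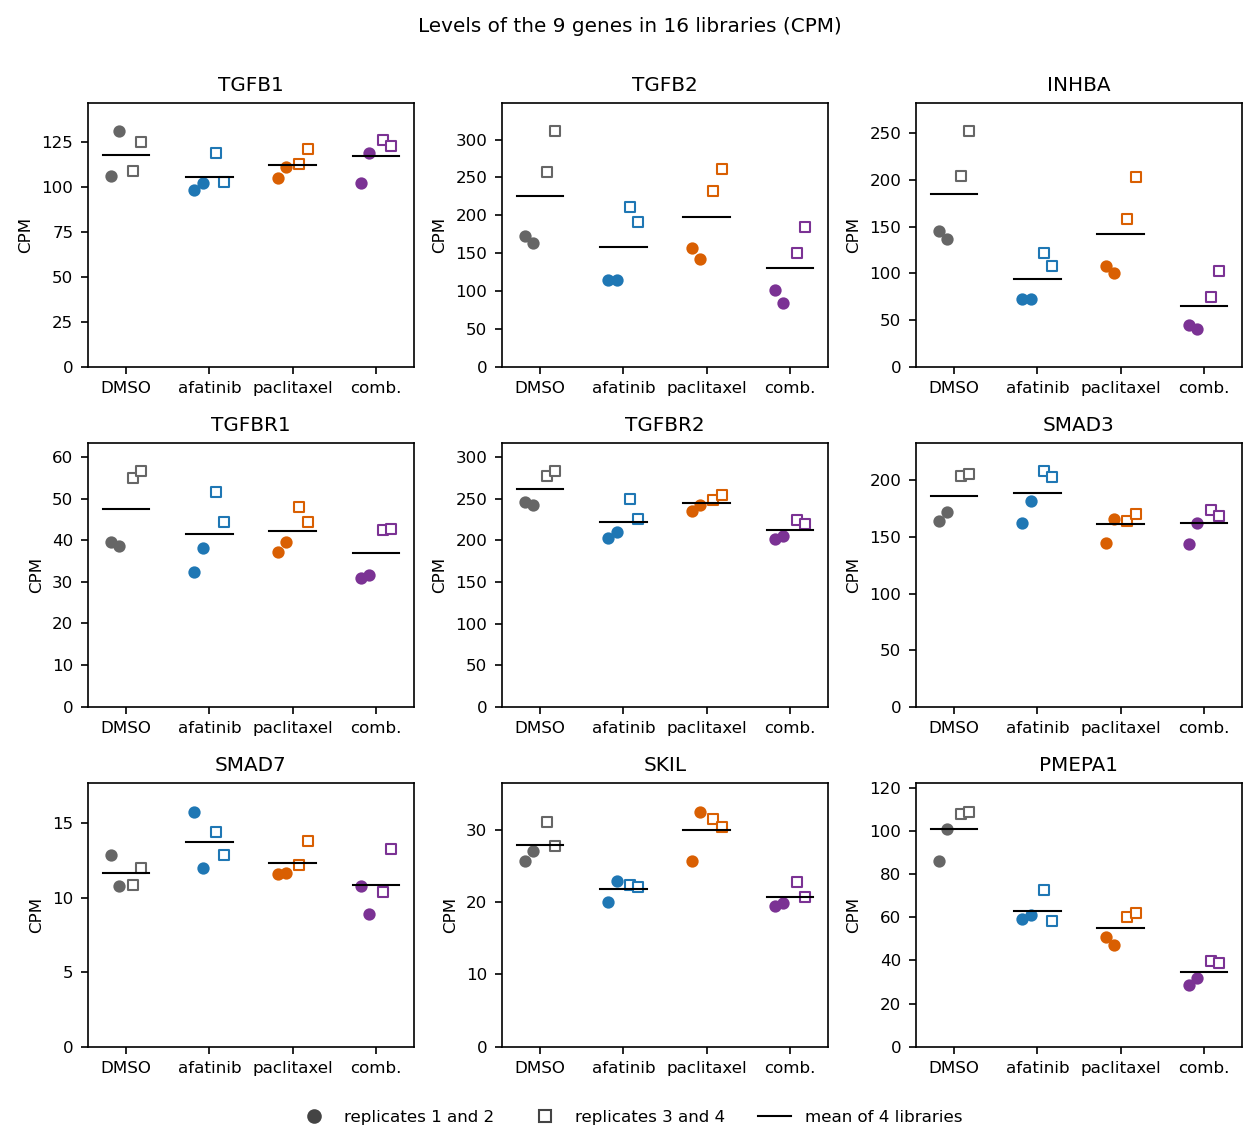
Level of each of the 9 genes in CPM (vertical axis, from 0) in every library of the 4 groups; filled circles are replicates 1 and 2, open squares replicates 3 and 4, and the line is the mean of 4. PMEPA1 stepped from 101 CPM in DMSO to 34.7 CPM in the combination without overlap, while TGFB1 stayed between 98.5 and 131 CPM in all 16 libraries.

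Across the members, the ligand genes INHBA and TGFB2 and the feedback gene PMEPA1 were lower with afatinib and lowest in the combination. With paclitaxel PMEPA1, INHBA and SMAD3 were called lower, and PMEPA1 stood at −0.88, beside −0.68 with afatinib. SKIL was lower wherever afatinib was given. TGFB1 and SMAD7 were not called against DMSO with any treatment, and with afatinib they stood at −0.16 and 0.24. Each library is RNA of a whole culture, so fewer cells of a kind and less RNA per cell cannot be told apart. With afatinib 6 of the 9 members were called, all lower, where 19.1% of all tested genes were called and 10.1% were called lower. With paclitaxel 3 of 9 were called, all lower, where 20.5% of all genes were called and 11.9% called lower. In the combination 7 of 9 were called, all lower, where 38.0% of all genes were called and 19.5% called lower. The median change of the 9 members was −0.24, −0.15 and −0.36 in these 3 comparisons, and that of all tested genes was 0.00 in each. The choice of the genes used these comparisons, so nothing is read from those counts.

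INHBA (chr7:41667168-41705834) encodes the beta A subunit of inhibin, which as a dimer forms activin A, a ligand that signals through SMAD2 and SMAD3 by its own receptors. In DMSO, replicates 1 to 4 measured 145, 137, 204 and 252 CPM. With afatinib they measured 72.9, 72.5, 122 and 108 CPM, and with paclitaxel 108, 100, 158 and 203 CPM. In the combination the values were 44.9, 40.3, 74.6 and 102 CPM. Every afatinib and every combination library lay below every DMSO library, while the paclitaxel group overlapped DMSO and was lower only within each pair of replicates. The log2 fold change was −0.98 ± 0.10 with afatinib, −0.39 ± 0.10 under paclitaxel and −1.54 ± 0.11 in the combination. Within replicates 1 and 2 the combination value was −1.73, and within replicates 3 and 4 it was −1.36. The paclitaxel call was lost without DMSO replicate 4 (−0.36), within replicates 3 and 4 (−0.34) and, at a larger −0.59, on the authors' log2 table corrected for RNA concentration. INHBA-AS1, the antisense gene over its exons, measured 0.482 CPM in DMSO.

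TGFB2 (chr1:218346235-218444619) encodes a TGF-beta ligand that needs the co-receptor betaglycan for tight binding. Its DMSO libraries measured 172, 164, 257 and 311 CPM in replicate order. With afatinib the values were 114, 115, 211 and 191 CPM, and in the combination 101, 84.0, 150 and 184 CPM. Paclitaxel gave 157, 142, 232 and 261 CPM. The groups overlapped, because replicates 3 and 4 were far above replicates 1 and 2 in each of them, but within either pair every afatinib and every combination library lay below the DMSO libraries. The log2 fold change was −0.53 ± 0.07 with afatinib and −0.82 ± 0.07 in the combination, and both were called. With paclitaxel it was −0.19 ± 0.07 and was not called, but it was called at the same −0.19 when the replicate number was a block, and without combination replicate 4, DMSO replicate 3 or paclitaxel replicate 1 (−0.24 to −0.19).

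TGFB1 (chr19:41301587-41353911) encodes the founding ligand of the family. It measured 118 ± 12.3 CPM in DMSO, 106 ± 9.28 CPM with afatinib, 113 ± 6.75 CPM under paclitaxel and 117 ± 10.4 CPM in the combination (SD, n = 4 each). The single libraries ran from 98.5 to 131 CPM and overlapped between all groups. Its log2 fold change was −0.16 ± 0.07, −0.07 ± 0.07 and −0.01 ± 0.07 in the same order, none called. Without DMSO replicate 3 the afatinib value was called at −0.22. Exons of TGFB1 overlap those of HNRNPUL1 on the opposite strand, which measured 654 CPM in DMSO with log2 fold changes of −0.10, −0.13 and −0.06. Whether counting used strand was not given in the sources used here, so reads of both genes may be mixed.

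TGFBR1 (chr9:99104038-99154192), the type I receptor kinase, measured 39.5, 38.7, 54.9 and 56.5 CPM in DMSO and 31.0, 31.6, 42.5 and 42.6 CPM in the combination. Afatinib gave 41.6 ± 8.26 CPM and paclitaxel 42.2 ± 4.84 CPM (SD, n = 4 each). The groups overlapped, although within each pair of replicates the combination lay below DMSO. The log2 fold change in the combination was −0.36 ± 0.06. That with afatinib, −0.18 ± 0.06, was called but lost its call without any 1 of 10 libraries, namely afatinib replicates 1 and 4, combination replicates 1, 2 and 3, DMSO replicates 1, 3 and 4, and paclitaxel replicates 1 and 3 (−0.20 to −0.14). The afatinib call was also lost within replicates 1 and 2 (−0.14), within replicates 3 and 4 (−0.22) and on the authors' corrected log2 table (−0.25). With paclitaxel the log2 fold change was −0.15 ± 0.06 and was not called. It was called without paclitaxel replicate 2 (−0.19) and, at −0.32, on the authors' corrected log2 table.

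TGFBR2 (chr3:30606502-30694142), the ligand-binding type II receptor, measured 246, 243, 277 and 283 CPM in DMSO, 203, 210, 250 and 226 CPM with afatinib and 202, 205, 224 and 220 CPM in the combination. Every combination library was below every DMSO library, and afatinib replicate 3 reached into the DMSO range. The log2 fold changes were small, −0.24 ± 0.05 with afatinib and −0.30 ± 0.05 in the combination, both called. The afatinib call was lost within replicates 3 and 4, at the same −0.24. With paclitaxel the level was 246 ± 8.53 CPM (SD, n = 4) against 262 ± 20.7 CPM in DMSO, and the log2 fold change of −0.09 ± 0.05 was not called.

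SMAD3 (chr15:67063763-67195195) carries the receptor signal to the nucleus. It measured 186 ± 21.7 CPM in DMSO, 189 ± 21.1 CPM with afatinib, 162 ± 11.0 CPM under paclitaxel and 162 ± 12.9 CPM in the combination (SD, n = 4 each). All groups overlapped. The log2 fold change was 0.02 ± 0.06 with afatinib and −0.20 ± 0.06 both with paclitaxel and in the combination. The paclitaxel call was lost without paclitaxel replicate 1 (−0.18) or 3 (−0.17), within replicates 1 and 2 (−0.10) and within replicates 3 and 4 (−0.29). The combination call was lost without combination replicate 1 (−0.17) and within replicates 1 and 2 (−0.13). Fewer libraries enter the fits within a pair.

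PMEPA1 (chr20:57648392-57711536), whose product binds SMAD2 and SMAD3 at the membrane and keeps them from the receptor, had the clearest separation of groups among the members. In replicate order it measured 86.0, 101, 108 and 109 CPM in DMSO. It measured 59.1, 61.2, 72.5 and 58.3 CPM with afatinib and 51.0, 47.0, 60.2 and 61.9 CPM with paclitaxel. The combination gave 28.5, 31.9, 39.9 and 38.6 CPM. Both single-drug groups lay below all DMSO libraries and above all combination libraries, and they overlapped each other. The log2 fold change was −0.68 ± 0.07 with afatinib, −0.88 ± 0.07 under paclitaxel and −1.55 ± 0.07 in the combination. Within replicates 1 and 2 and within replicates 3 and 4 the combination value was −1.63 and −1.46. An antisense gene, NKILA, overlaps its exons and was not analysed here.

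SKIL (chr3:170357678-170396835) encodes SnoN, a corepressor that silences SMAD target genes until it is degraded. Its DMSO libraries measured 25.7, 27.0, 31.0 and 27.8 CPM and its paclitaxel libraries 25.7, 32.5, 31.5 and 30.3 CPM. With afatinib it measured 20.0, 22.9, 22.3 and 22.1 CPM, and in the combination 19.4, 19.9, 22.7 and 20.7 CPM. All 8 libraries with afatinib, alone or combined, lay below all 8 without it. The log2 fold change was −0.35 ± 0.07 with afatinib, 0.11 ± 0.07 under paclitaxel and −0.43 ± 0.07 in the combination. The afatinib call was lost within replicates 1 and 2 (−0.29).

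SMAD7 (chr18:48919853-48952052), the inhibitory SMAD that recruits ubiquitin ligases to the receptor, was the member with the fewest counts. It measured 12.9, 10.8, 10.9 and 12.0 CPM in DMSO, 15.8, 12.0, 14.4 and 12.9 CPM with afatinib, 11.6, 11.7, 12.2 and 13.8 CPM with paclitaxel and 10.8, 8.93, 10.4 and 13.3 CPM in the combination. All groups overlapped, and in none of the comparisons with DMSO was it called. Its log2 fold change was 0.24 ± 0.10 with afatinib, 0.07 ± 0.10 under paclitaxel and −0.11 ± 0.10 in the combination, where both pairs of replicates went apart (−0.26 within replicates 1 and 2, 0.06 within 3 and 4). The afatinib value was called without DMSO replicate 1 (0.32) and, at 0.24, with the replicate number as a block.

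Counted by libraries that do not overlap, 3 members separated afatinib from DMSO (INHBA, SKIL and PMEPA1), where this held for 8.72% of all tested genes. PMEPA1 alone separated paclitaxel from DMSO, against 9.72% of all genes. In the combination 4 did so (INHBA, TGFBR2, SKIL and PMEPA1), against 16.8%. Nothing is read from these counts either, for the same reason.

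**Figure D2:**
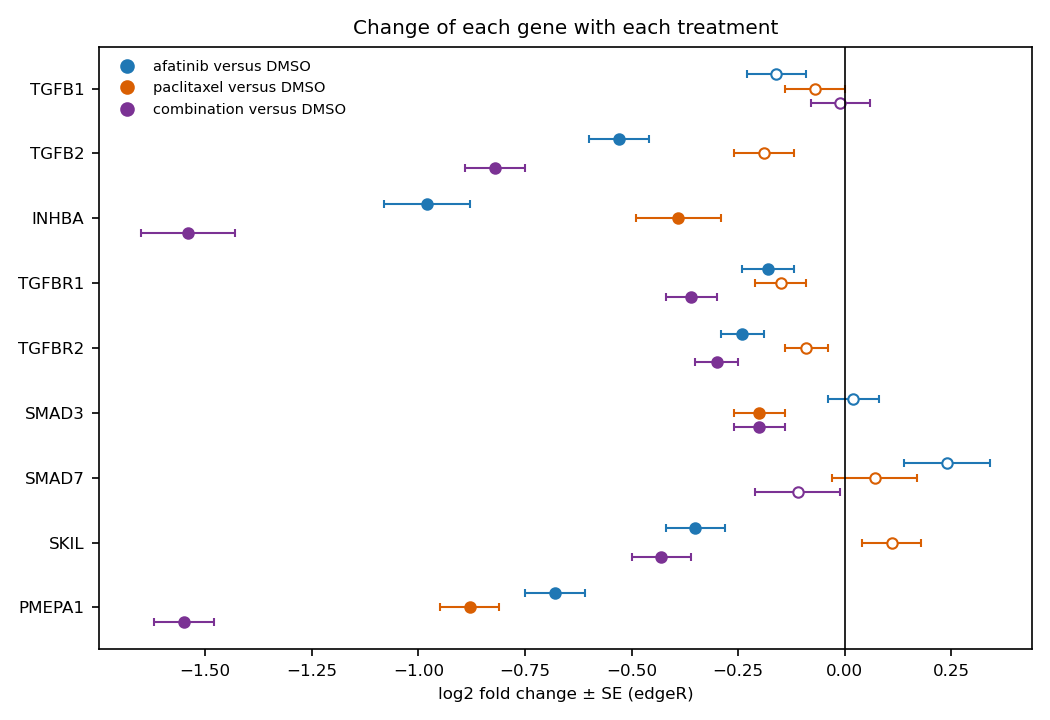
Log2 fold change against DMSO (horizontal axis) with its SE for each of the 9 genes and 3 treatments; filled points were called at an adjusted p under 0.05 in edgeR, and open points were not. INHBA at −1.54 and PMEPA1 at −1.55 in the combination lie farthest to the left, and TGFB1 has no filled point.

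The combination was also set against each single drug, which shows where adding the second drug moved a gene further. These comparisons share libraries with those above, so their values are given beside them and not as further support. Against afatinib alone, 5 of 9 members were called, all lower, where 27.4% of all genes were called and 14.3% called lower. PMEPA1 had the largest of these values, −0.86 ± 0.07, followed by INHBA at −0.57 ± 0.11, SMAD7 at −0.35 ± 0.10, TGFB2 at −0.29 ± 0.07 and SMAD3 at −0.21 ± 0.06. The SMAD7 call was lost without afatinib replicate 1 or combination replicate 2 (−0.25 to −0.24). Within replicates 3 and 4 the calls of INHBA (−0.37), TGFB2 (−0.26), SMAD3 (−0.25) and SMAD7 (−0.19) were lost. SMAD3 also lost its call within replicates 1 and 2 (−0.17). On the authors' corrected log2 table TGFB2 (−0.43) and SMAD7 (−0.34) lost theirs. TGFBR1, at −0.17 ± 0.06, was not called, but it was with the replicate number as a block at the same value, and without afatinib replicate 1 or 4, DMSO replicate 4 or paclitaxel replicate 2 or 4 (−0.21 to −0.17). TGFB1, at 0.15 ± 0.07, was called without combination replicate 1 or DMSO replicate 2 (0.16 to 0.21).

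Against paclitaxel alone, 6 of 9 members were called, all lower, where 24.2% of all genes were called and 11.6% called lower. INHBA stood at −1.15 ± 0.11, PMEPA1 at −0.67 ± 0.07, TGFB2 at −0.63 ± 0.07 and SKIL at −0.54 ± 0.07, while both receptors stood at −0.21, with SE of 0.06 for TGFBR1 and 0.05 for TGFBR2. The TGFBR1 call was lost without combination replicate 1 or 2 or paclitaxel replicate 1 or 2 (−0.20 to −0.16). Within replicates 3 and 4 the calls of TGFBR1 (−0.12) and TGFBR2 (−0.18) were lost, as they were on the authors' corrected log2 table (−0.17 and −0.19). SMAD3 stood at 0.01 ± 0.06, so its combination level was that of paclitaxel alone within the error. SMAD7, at −0.18 ± 0.10, was called without combination replicate 4 (−0.28).

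Whether the drugs acted on a gene more or less than the sum of their log2 changes is measured by the interaction, the combination change minus both single-drug changes. No member was called for it by edgeR or by DESeq2, where 0.884% of all genes were called by edgeR, and 2 of the 9 had an unadjusted p under 0.05. INHBA had an interaction of −0.18 ± 0.15, TGFB2 of −0.10 ± 0.10 and PMEPA1 of 0.01 ± 0.10. The log2 changes of PMEPA1 under each drug thus added up within the error. SMAD7 had the largest value, −0.42 ± 0.14, and it was called only when the replicate number was a block. The interactions of the other members lay between −0.19 (SKIL) and 0.22 (TGFB1).

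The difference between the concentration sets was not used to choose the genes and can be read from the fit. All 9 members had positive values in replicates 3 and 4 against 1 and 2, and 6 were called higher, where 69.5% of all tested genes were called and 36.2% called higher. INHBA was 0.80 ± 0.07 higher (adjusted p = 1.52e-08) and TGFB2 0.79 ± 0.05 (2.94e-12). In DMSO, INHBA measured 141 CPM over replicates 1 and 2 and 228 CPM over replicates 3 and 4, and TGFB2 measured 168 and 284 CPM. TGFBR1 was 0.42 ± 0.05 higher (adjusted p = 1e-08), PMEPA1 0.25 ± 0.05 (6.25e-05), SMAD3 0.20 ± 0.04 (0.000136) and TGFBR2 0.15 ± 0.04 (0.000644). SKIL at 0.11 ± 0.05, TGFB1 at 0.10 ± 0.05 and SMAD7 at 0.08 ± 0.07 were not called, with adjusted p = 0.0539, 0.069 and 0.301. TGFB1 was called without afatinib replicate 4 or DMSO replicate 2 or 3 (0.11 to 0.12). SKIL was called without combination replicate 4, DMSO replicate 4 or paclitaxel replicate 2 (0.12 to 0.14). The sets differ in labelled RNA concentration, and what else differs between them cannot be told apart from it. With log2 RNA concentration added as a term, 2 members were called, TGFB2 at 0.63 and INHBA at 0.64. PMEPA1 then stood at 0.33, TGFBR1 at 0.25, SMAD3 at 0.08 and TGFBR2 at 0.05, so the first of these lost its call at a larger value than before.

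**Figure D3:**
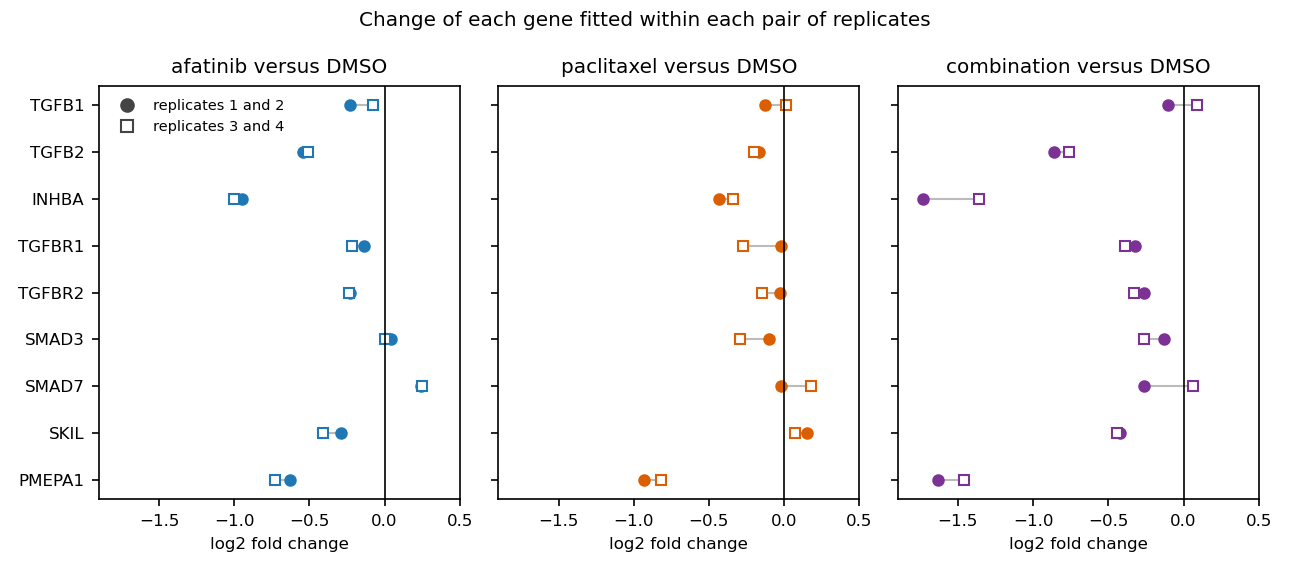
Log2 fold change against DMSO (horizontal axis) of each of the 9 genes fitted within replicates 1 and 2 (filled circles) and within replicates 3 and 4 (open squares), for the 3 treatments. In the combination the values of the 2 pairs lie closest for SKIL, −0.42 and −0.44, and the widest gap is that of INHBA, −1.73 against −1.36.

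The other genes of the pathway were taken from a list of 99 ligands, storage and activation proteins, receptors, SMADs, regulators, and targets, of which 83 had enough counts to be tested. The list was drawn up with earlier results of these data known. Its counts are therefore a description, and nothing is read from them about a branch of the pathway. Of the other 16, CDKN2B was not analysed here and the rest reached at most 13 counts in a library. With afatinib 35 of the 83 were called, 8 higher and 27 lower, with a median change of −0.11. With paclitaxel 25 were called, 9 higher and 16 lower (median −0.04), and in the combination 51, with 13 higher and 38 lower (median −0.19). The median of all tested genes was 0.00 each time. Among all tested genes 9.0%, 8.65% and 18.5% were called higher with afatinib, with paclitaxel and for both drugs together, and the shares called lower are those given above. In the same fit 69 of the 83 were called between the concentration sets, 49 of them higher in replicates 3 and 4. Of all tested genes 69.5% were called there and 36.2% called higher.

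Among 22 tested targets of SMAD2 and SMAD3, 10 fell with afatinib and none rose (median −0.26), and in the combination 11 fell and 4 rose (median −0.32). Of all genes 10.1% and 19.5% were called lower and 9.0% and 18.5% higher in these comparisons. IL11, a cytokine gene, fell by 1.14 ± 0.10 with afatinib and by 0.98 ± 0.09 in the combination, and stood at 0.08 ± 0.09 with paclitaxel. TAGLN, an actin-binding protein, fell by 0.75 ± 0.08 with afatinib. The metalloprotease gene ADAM19 fell in all 3 comparisons, at −0.70 ± 0.07, −0.42 ± 0.07 and −1.06 ± 0.07, as did COL4A1, a basement membrane collagen, at −0.54 ± 0.09, −0.51 ± 0.09 and −0.76 ± 0.09.

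Paclitaxel moved these targets in both directions, with 3 higher and 5 lower of 22 (median 0.03), where 8.65% of all genes were called higher and 11.9% lower. SNAI1, a repressor of epithelial genes, rose by 0.82 ± 0.11 from 3.21 ± 0.39 CPM, and ANGPTL4, a lipase inhibitor, rose by 1.09 ± 0.17 from 6.59 ± 1.9 CPM. JUNB, an AP-1 subunit, stood at 0.05 ± 0.09 with paclitaxel and fell by 0.83 ± 0.10 in the combination.

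Targets of the bone morphogenetic protein (BMP) branch, which signals through SMAD1, SMAD5 and SMAD9, were higher where they were called. Of 6 tested, 5 rose with afatinib (median 0.64) and 4 each rose with paclitaxel (median 0.35) and in the combination (median 0.50), with none called lower. These counts stand beside the 9.0%, 8.65% and 18.5% of all genes called higher, and they too come from a list chosen with earlier results known. ID1 and ID3, inhibitors of basic helix-loop-helix factors, rose by 0.62 ± 0.09 and 0.65 ± 0.07 with afatinib. ID1 went from 54.0 ± 6.66 to 83.3 ± 9.14 CPM and ID3 from 32.4 ± 8.6 to 50.4 ± 8.81 CPM. In the combination ID3 rose by 0.45 ± 0.07, and ID1 stood at 0.20 ± 0.09, which was not called. ID2, at only 0.567 ± 0.149 CPM in DMSO, rose by 2.09 ± 0.19 with paclitaxel and by 1.74 ± 0.19 in the combination. The helix-loop-helix factor ATOH8 was also low, at 0.64 ± 0.176 CPM in DMSO. It rose in all 3 comparisons, by 1.49 ± 0.17, 0.86 ± 0.18 and 1.46 ± 0.17. Its paclitaxel call was lost within each pair of replicates.

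**Figure D4:**
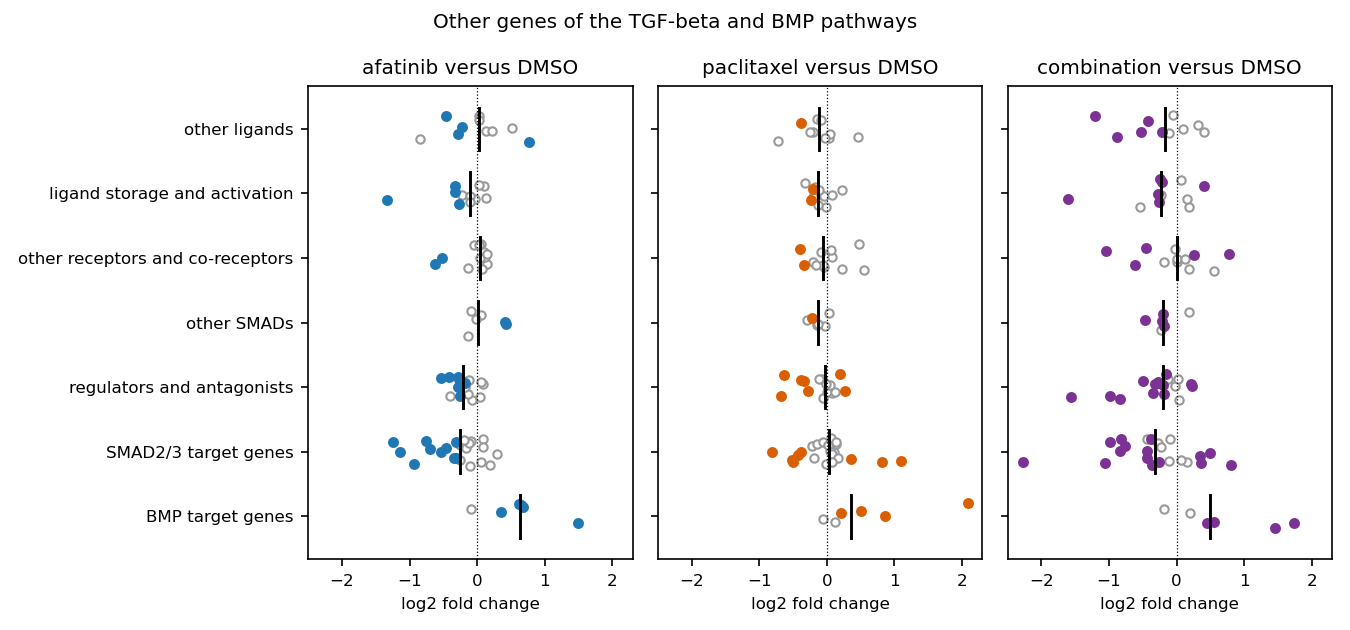
Log2 fold change against DMSO (horizontal axis) of the 83 other pathway genes, 1 point per gene, by list and treatment; filled points were called at an adjusted p under 0.05 in edgeR and black bars are list medians. With afatinib the filled points of SMAD2/3 targets all lie below 0 and those of BMP targets all lie above 0. The lists were chosen with earlier results of these data known, so this is a description only.

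Of 16 tested regulators and antagonists, 8 fell with afatinib and none rose, where 10.1% of all genes were called lower and 9.0% higher. In the combination 10 fell and 2 rose, where 19.5% of all genes were called lower and 18.5% higher. The ubiquitin ligases NEDD4L and SMURF2, which act on SMADs and receptors, fell by 0.53 ± 0.06 and 0.42 ± 0.05 with afatinib. FKBP1A, which holds the type I receptor inactive, fell in all 3 comparisons, at −0.29 ± 0.06, −0.68 ± 0.06 and −0.84 ± 0.06. Its afatinib call was lost within replicates 3 and 4, and its afatinib and paclitaxel calls on the authors' corrected log2 table. SKI, the corepressor related to SKIL, stood at −0.08 ± 0.06 with afatinib and fell by 0.34 ± 0.06 with paclitaxel and by 0.49 ± 0.06 in the combination, an order unlike that of SKIL, which was lower with afatinib. The difference between SKI and SKIL was not tested. FST, which encodes the activin antagonist follistatin, fell by 0.27 ± 0.07 with afatinib and by 0.98 ± 0.07 in the combination, and the BMP antagonist NOG fell by 1.56 ± 0.16 in the combination.

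Among the other ligand genes, INHBB, the second activin subunit gene, fell by 0.46 ± 0.10 with afatinib and by 1.20 ± 0.10 in the combination, and stood at −0.15 ± 0.10 with paclitaxel. The afatinib call of INHBB was lost within replicates 3 and 4 and on the authors' corrected log2 table. Of 10 tested ligand genes, 5 fell in the combination and none rose, where 19.5% of all genes were called lower and 18.5% higher. With afatinib 3 fell and 1 rose (median 0.03), where 10.1% of all genes were called lower and 9.0% higher. With paclitaxel 1 fell and none rose, where 11.9% of all genes were called lower and 8.65% higher. THBS1, whose product thrombospondin can release TGF-beta from its latent form, fell from 1760 ± 669 CPM by 1.33 ± 0.19 with afatinib and by 1.61 ± 0.19 in the combination. The THBS1 call with afatinib was lost within replicates 1 and 2. FURIN, the protease that cleaves TGF-beta precursors, fell by 0.33 ± 0.05 with afatinib. All 11 tested storage and activation genes were called higher in replicates 3 and 4 than in 1 and 2, where 36.2% of all genes were.

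Of 12 other receptors and co-receptors, 2 fell with afatinib, 2 with paclitaxel, and 3 fell and 2 rose in the combination. As shares called these are 16.7%, 16.7% and 41.7%, close to the 19.1%, 20.5% and 38.0% of all genes, so the counts show nothing about receptors as a group. The activin receptor ACVR2B fell in all 3 comparisons, at −0.62 ± 0.09, −0.34 ± 0.09 and −1.04 ± 0.10, from 12.3 ± 3.36 CPM. ENG, the co-receptor endoglin, fell by 0.52 ± 0.09 with afatinib. TGFBR3, the betaglycan gene, stood at 0.15 ± 0.10 with afatinib and fell by 0.40 ± 0.10 with paclitaxel and by 0.61 ± 0.10 in the combination. Of the 6 other SMAD genes, SMAD6 and SMAD9 rose with afatinib, by 0.41 ± 0.10 and 0.43 ± 0.09. SMAD6, an inhibitor of the BMP branch, fell by 0.46 ± 0.11 in the combination. Both SMAD6 calls and the paclitaxel call of ACVR2B were lost within each pair of replicates. Within replicates 3 and 4 the afatinib calls of SMAD9 and ENG and both calls of TGFBR3 were lost. On the authors' corrected log2 table the afatinib calls of SMAD6 and ENG and the paclitaxel calls of ACVR2B and TGFBR3 were lost.

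The combination differed from the sum of the single-drug changes for 3 of the 83 genes, all below 0, where 0.884% of all genes were called. FST had an interaction of −0.59 ± 0.10 (edgeR, adjusted p = 0.00459), and it was called without each library in turn (adjusted p = 0.000106 to 0.021). Its call was lost without the concentration set in the design, within each pair of replicates and on the authors' corrected log2 table. The calls of INHBB and ID3 were lost in those settings too. INHBB, at −0.59 ± 0.14 (adjusted p = 0.0492), lost its call without any 1 of 14 of the 16 libraries, all but afatinib replicate 1 and DMSO replicate 2, with adjusted p from 0.0281 to 0.126 over the 16. ID3, at −0.42 ± 0.10 (adjusted p = 0.0441), lost it without any 1 of 12, all but afatinib replicate 2, combination replicate 4, DMSO replicate 1 and paclitaxel replicate 2, with adjusted p from 0.0125 to 0.106.

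Genes with the pattern most like each member were found by Pearson's r over the 16 libraries, on log2 CPM with the mean of each concentration set removed. The libraries share their treatment groups and depth, so these values describe likeness only. TGFB2 and INHBA were each other's nearest gene of all (r = 0.986), followed for TGFB2 by SH3TC2 (0.981) and TNFRSF21 (0.976) and for INHBA by CAV1 (0.979) and CXCL1 (0.975). PMEPA1 was most like CBX6 (0.98), CDS2 (0.977) and TRIP10 (0.976). SKIL was most like BCAR3 (0.948) and the ubiquitin ligase SMURF2 (0.946), and TGFBR2 most like LPAR1 (0.956), a receptor for lysophosphatidic acid. The nearest genes of SMAD3 were KLHL42 (0.969) and LRP8 (0.937), and of TGFBR1 CAND1 (0.937) and GXYLT1 (0.916). TGFB1 and SMAD7 had lower values, 0.895 with DRAM1 for TGFB1 and 0.809 with PPAP2B for SMAD7.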

How the data were processed

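RNA from 16 libraries of MDA-MB-231 cells was sequenced. The authors deposited counts per gene as whole numbers, for which the submitters' processing notes name the aligner STAR (2.7.5b), the counter featureCounts (Subread 2.0.1) and the build hg38. The deposited log2 table, which the authors corrected for RNA concentration, served only as an alternative. A further length column of the count table, as deposited by the authors, gave the scale per kilobase. Genes without a symbol (171, 0.036 to 0.0462% of counts) were named in no result. The chi-square per gene between libraries of a group was 7.33 to 380, so none was counted as a copy.

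Counts were filtered with filterByExpr (minimum count 10, minimum total 15), scaled with TMM factors and fitted in edgeR 4.0.16 (R 4.3.3) by robust quasi-likelihood with F-tests, with group and concentration set in the design. The common biological coefficient of variation was 7.41%. P-values were adjusted by the Benjamini-Hochberg method over 17991 genes, and genes under 0.05 were called. Each SE was derived from the size of the log2 fold change and its F statistic (size over the root of F). Alternatives used DESeq2 1.42.0 and limma 3.58.1. The scripts were tested on simulated data.

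The 9 members and the pathway and marker lists were chosen with earlier results of these data known. Named are the members, up to 4 called genes of each list and comparison with DMSO with the smallest p, and the 3 genes most like each member with an average log2 CPM of at least 3. Those printed were picked from these after their values were seen, and 1 gene of the lists is not reported here by name. FST, INHBB and ID3 are also named for their interaction.

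Deviations from group means correlated by 0.37 to 0.70 between libraries of the same number and by 0.38 to 0.67 between those of the same set with another number. The likeness between libraries thus lay largely in the set. With set means removed too, the same-number values were −0.12 to 0.13 (median 0.0027), and those between sets were −0.027 to 0.18 (median 0.082). Positions come from GENCODE v29 and promoter sequences from RefSeq (GRCh38.p14).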

Additional observations from a re-analysis of the deposited data

Results flagged for a closer look

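In 3 of 204 groups of 4 libraries tested, 1 library stood far from the other 3. Chance alone would flag about 1 in 20 groups if the 4 libraries scattered alike, but many genes differ between the concentration sets. HEY1, a BMP and Notch target, measured 5.26 CPM in combination replicate 2. NOG, the BMP antagonist noggin, measured 78.9 CPM in DMSO replicate 4, and SMAD4 measured 41.0 CPM in DMSO replicate 4. None of the 9 TGF-beta ligand, receptor and feedback genes had such a library in any of the 4 groups.

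The effect of each drug differed with and without the other for 3 pathway genes by the interaction term of edgeR. The values were −0.59 for FST, −0.59 for INHBB and −0.42 for ID3 on the log2 scale. The call of FST held without each library in turn, and those of INHBB and ID3 did not. All 3 calls were lost without the concentration set in the design, within each pair of replicates and on the authors' corrected log2 table.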

How the results depend on the processing

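Of the log2 fold changes of the 9 members under an alternative, 1491 were counted as the same, 29 moved beyond the replicate spread, 6 gained a call and 4 lost one. Gained and lost calls were counted for the comparison of the concentration sets only. For the treatment comparisons and the interaction only the size of the shift was judged. A call gained or lost there with a small shift is thus among the 1491. The afatinib call of TGFBR1, for instance, was lost without any 1 of 10 libraries. Of those of the other named pathway genes, 1570 kept direction and call, 179 lost the call and 1 changed sign. Without the concentration set in the design, members called fell to 1 with afatinib, 1 with paclitaxel, 4 in the combination, 1 for the combination against afatinib and 2 against paclitaxel. The changes themselves hardly moved, with INHBA at −0.98 with afatinib and TGFB2 at −0.52 with afatinib and −0.80 in the combination. The other pathway genes called then numbered 7, 5, 19, 8 and 5 in the same order, and 0 for the interaction. Within replicates 3 and 4 alone, members called were 1 with paclitaxel and 1 for the combination against afatinib. Other pathway genes called there were 14, 6, 30, 22 and 14 in the same order, and 0 for the interaction. Within replicates 1 and 2 they were 20 for the combination against afatinib and 0 for the interaction. On the authors' corrected log2 table, 3 members were called for the combination against afatinib, and other pathway genes called were 14 with afatinib, 15 with paclitaxel, 14 for the combination against afatinib, 17 against paclitaxel and 0 for the interaction. SMAD2 in the combination was 0.01 on that table against −0.21 in the fit of counts. With log2 RNA concentration added, the set comparison called 2 members and 36 other pathway genes. For the interaction, other pathway genes called were 15 with no low-count filter, 9 by DESeq2, 12 with the replicate block and 1 to 5 without each library in turn. With the replicate block 1 member was called for the interaction, SMAD7, and beside the calls given above it moved no other count of members or of other pathway genes by over 1.5 times. The cause of these shifts was not tested. Fewer libraries enter the fits within a pair of replicates. The lowest count of a member in a library was 372, for SMAD7.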
